A study of Homo sapiens with 4 samples.

Results

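The comparison set progenitor nuclei of enteric ganglioids labelled day 42 of differentiation against those labelled day 38. Progenitors were the nuclei that the authors annotated as Progenitor 1 or Progenitor 2, which came to 6692 of the 14812 annotated nuclei and of 25306 deposited barcodes. Of these, 2892 were Progenitor 1 and 3800 were Progenitor 2. No expression value was used here to choose them.

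Enteric ganglioids are free-floating 3D cultures that model the nervous system of the gut, with neurons, progenitors and smaller numbers of other cells. Here they were made from H9, a widely used human embryonic stem cell line, and read by single-nucleus RNA sequencing in 4 samples. Each day held 1 control sample and 1 sample given PP121, a multi-target tyrosine kinase inhibitor, at 2 µM from day 15 to day 20. All 4 samples passed through the same induction of neural crest, and after day 15 all were fed a medium with GDNF, so the controls share these agents. The day is a deposited label of each nucleus, and the 2 samples of day 42 are differentiation 1 of the sample labels and the 2 of day 38 are differentiation 2. Day and differentiation therefore cannot be told apart. The study's text gives a single day for the sequencing of these ganglioids, between the deposited ones, so "day 42" and "day 38" stand here for the deposited labels and may not be days of collection. A further deposited column of sample names disagreed with the labels for both control samples, which were placed by their labels. All samples come from 1 cell line, and each day holds 1 differentiation. The p-values of the day fits measure how the day difference varied between control and PP121, with information shared over genes. They do not measure the spread between differentiations.

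Enteric progenitors descend from the neural crest, divide while they colonise the gut, and give rise to neurons and glia. Their balance between division and differentiation is set by signals that include GDNF through RET, endothelin 3, Notch, WNT and BMP. Cells in 3D culture also answer to their supply of oxygen and amino acids: low oxygen induces glycolytic enzymes through HIF factors, and amino acid shortage or misfolded protein induces a set of genes through ATF4.

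The sums over progenitor nuclei rested on 1741 nuclei in the control and 2304 in the PP121 sample of day 42, and on 1291 and 1356 nuclei on day 38. They held 12896385, 14949743, 9390571 and 9520803 UMIs in that order, and the median nucleus held 5424 to 6390 UMIs. No pair of samples shared more than 15 cell barcodes, or 0.31% of the smaller sample. The deposited classes carried progenitor genes the study used. PAX3, a neural crest and dorsal neural tube factor, read 511 to 572 CPM (counts-per-million, scaled to library size) in progenitors and 115 to 211 CPM in enteric neurons, and SOX2, a progenitor factor, 51.3 to 60.6 CPM against 12.3 to 17.8 CPM. Genes that define enteric crest progenitors did not set the class apart from neurons: SOX10 read 7.45 to 12.4 CPM against 7.88 to 14 CPM, and the GDNF receptor RET 0.543 to 0.84 CPM against 1.19 to 1.71 CPM. The study's 7 progenitor markers summed to 649 to 934 CPM in Progenitor 1 and to 1914 to 2434 CPM in Progenitor 2. In enteric neurons they summed to 418 to 468 CPM. Mesenchymal nuclei (579 to 1164 CPM) and epithelial nuclei (721 to 873 CPM) overlapped with Progenitor 1. The classes are named here as deposited.

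Progenitors were 40.6% of annotated nuclei in the control and 50.2% in the PP121 sample of day 42, and 42.6% and 46.6% on day 38. The means by day, 45.4% ± 6.77 and 44.6% ± 2.80 (SD, n = 2 each), overlapped (exact two-sided permutation test, p = 1.0, where 0.333 is the smallest p that 2 against 2 samples allow). The mix of the classes moved in opposite directions by treatment. Progenitor 1 made up 33.7% of control progenitors on day 42 and 47.1% on day 38, against 52.0% and 36.9% with PP121. Other classes moved with the day in both treatments: mesenchymal nuclei were 0.934% and 0.719% of annotated nuclei on day 42 against 13.5% and 14.5% on day 38, and enteric neurons 53.7% and 44.3% against 41.3% and 33.5%. Cell cycle phases as deposited did not separate the days in the 2 classes together. G1 held 42.9% and 35.5% of progenitors on day 42 against 41.2% and 37.7% on day 38, and G2M held 20.6% and 25.1% against 21.3% and 30.4%. In Progenitor 1 alone G1 did separate them, at 27.5% and 24.7% against 30.9% and 28.9% (exact two-sided permutation test, p = 0.333).

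Among the genes that passed the test, the stress genes ATF5, DDIT3 and CDKN1A were higher on day 42. The glycolytic genes PFKFB4 and ENO1, the WNT pathway genes TCF7L1 and LGR5 and the matrix gene LAMA1 were lower on day 42. With the treatment as a block, edgeR's quasi-likelihood test called 606 of 20260 genes (2.99%) at an adjusted p under 0.05. Of these, 285 (1.41%) were higher on day 42 and 321 (1.58%) were lower. Before adjustment, 2953 genes had a p under 0.05.

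Those calls rest on 1 residual degree of freedom, and the block decides them. Without it 0 genes were called (2248 at an unadjusted p under 0.05, smallest adjusted p = 0.292), and DESeq2's Wald test with the block called 164. Single samples mattered too, in fits without the block: 2 genes, COL3A1 and PDZRN4, were called without the PP121 sample of day 38, 175 without the control of day 42, 300 without the PP121 sample of day 42 and 1031 without the control of day 38. Every other gene named below as called in the 2 classes together thus lost its call without the PP121 sample of day 38. The call count also depended on which nuclei were summed, since sums over 501 Progenitor 1 and 683 Progenitor 2 nuclei from every sample gave 2125 calls. Both day 42 samples stood above both day 38 samples in 4519 genes (22.3%), and both stood below in 4334 (21.4%). Of the 606 called genes, 540 separated the days in this way and 66 did not.

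Below, progenitor levels are TMM-scaled CPM, given for the control and then the PP121 sample of a day. A log2 fold change is day 42 over day 38, with its standard error, and CPM values are not comparable between genes because nuclei yield reads by gene structure and length as well as by level.

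Among the 10 genes with the largest rise on day 42, THRB codes for a thyroid hormone receptor. It read 85.0 and 29.5 CPM on day 42 against 15.8 and 6.96 CPM on day 38. Both day 42 samples stood above both day 38 samples, and the log2 fold change was 2.27 ± 0.22 (edgeR adjusted p = 3.07e-09). ATF5, a bZIP transcription factor of the stress response, read 40.7 and 23.8 CPM against 10.8 and 4.68 CPM, a log2 fold change of 2.10 ± 0.23 (edgeR adjusted p = 6.1e-08). SLC7A11, the cystine and glutamate exchanger, read 37.4 and 20.6 CPM against 10.4 and 5.22 CPM (log2 fold change 1.91 ± 0.23). FSTL5, a secreted follistatin-like protein, read 128 and 60.0 CPM against 36.7 and 15.1 CPM (log2 fold change 1.89 ± 0.20). In all 4 the control was above the PP121 sample on each day.

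A further 5 of the 10 carry symbols of noncoding or uncharacterised transcripts. AL357507.1 read 318 and 114 CPM on day 42 against 51.7 and 4.02 CPM on day 38 (log2 fold change 3.47 ± 0.27, edgeR adjusted p = 1.07e-11), with a UMI in 452 and 298 nuclei against 77 and 27. AL356277.3 had the largest fitted value, 3.90 ± 0.32, and read 92.0 and 22.3 CPM against 9.5 and 0.109 CPM, the last from 1 nucleus. Leaving out 1 sample moved that value between 2.23 (without the control of day 42) and 8.90 (without the control of day 38), and the call was lost without the PP121 sample of day 38 (2.58, edgeR adjusted p = 0.214). LINC00571 and LINC02334 changed by 2.06 ± 0.21 and 1.89 ± 0.21. AL356488.3 was of another kind: it read 10.3 and 96.7 CPM against 6.04 and 2.07 CPM, and 98% of its UMIs in the PP121 sample of day 42 came from 10 nuclei. DEC1 completed the 10 at 20.7 and 12.0 CPM against 4.70 and 2.83 CPM, and its pooled level in mesenchymal nuclei, which were fewer on day 42, was 543 CPM. Mesenchymal subtraction, described with the matrix genes, took its day 38 counts to about 0 and its fitted value from 2.11 to 10.36.

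The 10 largest falls began with COL3A1, a fibrillar collagen, at 4.78 and 2.45 CPM on day 42 against 26.9 and 26.4 CPM on day 38 (log2 fold change -2.93 ± 0.26, edgeR adjusted p = 2.23e-10). Its level in mesenchymal nuclei was 901 CPM. SEMA3A, a repulsive guidance signal of axons and crest cells, read 14.9 and 22 CPM against 32.8 and 150 CPM (log2 fold change -2.0 ± 0.25). Its mesenchymal level was 255 CPM, its call was lost with DESeq2 (adjusted p = 0.303), and its fold change was -0.83 without the PP121 sample of day 38. EYA1, a transcriptional coactivator of placodes and crest, read 16.3 and 36.6 CPM against 61.4 and 87.0 CPM (-1.57 ± 0.20). The mesenchymal level of EYA1 was 248 CPM. All of the 10 falls were also called lower on day 42 in enteric neurons by the same fit (EYA1 -1.48, COL3A1 -2.42). Of the 10 largest rises, all but AL356488.3, THRB and DEC1 were also called higher in neurons. The neuron fit called 2015 of 21243 genes. CDCA7L, a nuclear protein linked to cell division, read 6.58 and 7.48 CPM against 16.5 and 27.0 CPM (-1.60 ± 0.24). COL3A1, SEMA3A, EYA1 and CDCA7L all separated the days.

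IGFBP5, which binds insulin-like growth factors, DNAH11, a dynein heavy chain of motile cilia, PRMT8, an arginine methyltransferase, PDZRN4 and the uncharacterised AC107021.1 and AC087477.2 were the others, at log2 fold changes of -2.07 to -1.49. For DNAH11, PRMT8 and AC087477.2 the fall was mostly that of the PP121 samples. PRMT8 read 10.3 CPM in the control of day 42 against 16.8 in that of day 38, and 11.7 against 53.4 CPM with PP121. For PDZRN4, 92.8% of the UMIs in the control of day 38 came from 10 nuclei.

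**Figure D1:**
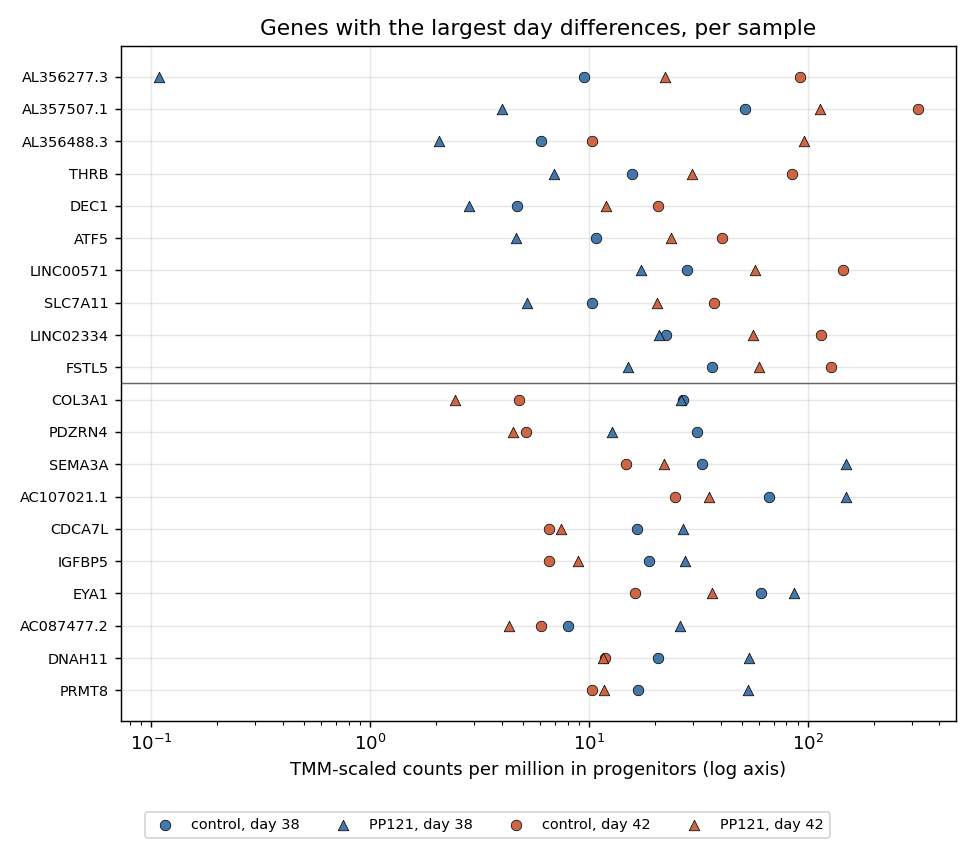
TMM-scaled CPM (log axis) in progenitors for the 10 genes with the largest rise on day 42 (above the line) and the 10 with the largest fall (below it). Each point is 1 sample, and for each gene both samples of one day lie above both of the other, as for ATF5 at 40.7 and 23.8 CPM on day 42 against 10.8 and 4.68 CPM on day 38.

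Some stress genes were higher on day 42. Of 36 tested genes of a list of immediate early and stress genes, 6 were higher on day 42 and 0 were lower, and the list's median log2 fold change was 0.35 against 0.003 over all genes tested, of which 1.41% were called in that direction. The 6 were CDKN1A, DDIT3, ASNS, TRIB3, HERPUD1 and GADD45A, of which DESeq2 called CDKN1A, DDIT3 and HERPUD1. Of the 36, 24 had a positive and 12 a negative log2 fold change. DDIT3 (CHOP), a transcription factor of prolonged stress, read 35.6 and 29.5 CPM on day 42 against 13.5 and 9.90 CPM on day 38 (log2 fold change 1.48 ± 0.22, edgeR adjusted p = 1.72e-05). TRIB3, a pseudokinase induced by ATF4, read 13.8 and 11.6 CPM against 8.50 and 3.48 CPM (1.16 ± 0.28). ASNS, asparagine synthetase, read 6.58 and 7.10 CPM against 3.58 and 2.18 CPM (1.27 ± 0.33). The ASNS call was lost with DESeq2 (adjusted p = 0.507) and in G1 nuclei (0.77, edgeR adjusted p = 0.378). HERPUD1, a membrane protein of endoplasmic reticulum quality control, read 101 and 75.9 CPM against 54.6 and 33.5 CPM (1.03 ± 0.19). In each of these genes both day 42 samples stood above both day 38 samples.

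Immediate early genes of that list gave no call. FOS differed by -0.05 ± 0.20 and EGR1 by -0.15 ± 0.19 on the log2 scale, so the calls of the list lie among its stress genes.

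A list of 49 symbols of the ATF4 response was drawn up after these values were seen and is given as a description. Of its 41 tested genes 9 were higher on day 42 and 0 lower, beside 1.41% and 1.58% of all genes. DESeq2 called 3 of the 9, and the list's median was 0.49. The days were separated upward in 29 and downward in 1, beside 22.3% and 21.4% of all genes. Beside ATF5, SLC7A11, DDIT3, ASNS and TRIB3 the called genes were CEBPB (log2 fold change 1.52 ± 0.30), GDF15 (1.11 ± 0.27), JDP2 (1.10 ± 0.29) and MTHFD2 (0.71 ± 0.21), the last a mitochondrial folate enzyme. ATF4 itself, which is regulated mainly by translation, read 35.5 and 43.9 CPM against 30.2 and 19.9 CPM and was not called (0.68 ± 0.22, edgeR adjusted p = 0.0737). Chaperones of the endoplasmic reticulum, also listed afterwards, gave 1 call among 27 tested, HERPUD1, which is near the 2.99% of all genes. HSPA5 (BiP) differed by 0.54 ± 0.18 (edgeR adjusted p = 0.109).

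Promoter letters are shown for ASNS and HERPUD1 because TGATGNAA, the C/EBP-ATF response element through which ATF4 acts, lies in both. The windows are from the RefSeq table for GRCh38.p14, read 5′ to 3′ on the gene's strand, with the element, or its reverse complement, in capitals. ASNS lies on the minus strand at chr7:97872445-97872500, and its element begins 68 bases before the start. HERPUD1 lies on the plus strand at chr16:56931942-56931997, and its element begins 176 bases before the start on the opposite strand.
ASNS: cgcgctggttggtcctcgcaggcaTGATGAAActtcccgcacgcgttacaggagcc
HERPUD1: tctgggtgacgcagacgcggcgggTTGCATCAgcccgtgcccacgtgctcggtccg
On either strand of the 250 bases before a start, TGATGNAA was found in 3.14% of all 35116 promoters. It was in 6 of the 46 promoters that the table holds for 28 of the tested ATF4 response genes. For 8 of the called ones it was in 2 of 17 promoters, those of ASNS and JDP2. HERPUD1 is of the stress list and not of the ATF4 response list. A match is a description of the letters and was not tested as a binding site.

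A list of p53 targets was also drawn up afterwards. Of its 38 tested genes 7 were higher on day 42 and 0 lower, beside 1.41% and 1.58% of all genes. The list's median was 0.45, and DESeq2 called CDKN1A alone of the 7. GDF15 was also in the ATF4 response list, and CDKN1A and GADD45A were also in the stress list. CDKN1A (p21), which arrests the cell cycle, read 33.6 and 25.7 CPM on day 42 against 17.3 and 4.68 CPM on day 38 (log2 fold change 1.61 ± 0.25, edgeR adjusted p = 5.16e-05). PURPL, a noncoding RNA induced by p53, read 233 and 192 CPM against 101 and 32.0 CPM (1.88 ± 0.22). GDF15, MIR34AHG, PLK2, GADD45A and ZMAT3 were the others. In MIR34AHG and ZMAT3 the days overlapped. ZMAT3 read 160 and 150 CPM on day 42, and 157 and 50.5 CPM on day 38, so that its difference lay in the PP121 samples. MDM2, the p53 inhibitor, differed by 0.46 ± 0.21 and was not called.

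Some hypoxia and glycolysis genes were lower on day 42. Of 34 tested, 9 were lower and 0 higher, where 1.58% of all genes were lower, and the median log2 fold change was -0.46 against 0.003 over all genes. DESeq2 called 6 of the 9. Of the 34, 30 had a negative and 4 a positive log2 fold change. Both day 42 samples lay below both day 38 samples in 9 of the 34 and above in 1. All genes stood at 21.4% and 22.3%, so the downward count is near its share. These 9 are not the same as the 9 called. PFKFB4, a regulator of phosphofructokinase that HIF induces, read 55.1 and 120 CPM on day 42 against 104 and 308 CPM on day 38 (log2 fold change -1.15 ± 0.18, edgeR adjusted p = 5.94e-05). ENO1, the glycolytic enolase, read 66.9 and 146 CPM against 117 and 271 CPM (-0.85 ± 0.18). PDK1, which holds pyruvate back from the mitochondria, read 40.7 and 70.3 CPM against 64.4 and 143 CPM (-0.85 ± 0.19). The PP121 sample was above the control on each day, so the days of these 3 genes overlapped, and day 42 was below day 38 within each treatment. Without the PP121 sample of day 38, PFKFB4 differed by -0.25 and ENO1 by -0.14.

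HK2, PGK1, GPI, SLC2A1, P4HA1 and ERO1A made up the rest. HK2 (hexokinase) fell by 0.87, PGK1 (phosphoglycerate kinase) by 0.70, GPI (the glucose phosphate isomerase) by 0.65 and SLC2A1 (the glucose transporter GLUT1) by 0.68 on the log2 scale. P4HA1, a collagen prolyl hydroxylase, fell by 0.68 and ERO1A, an oxidase of the endoplasmic reticulum, by 0.70. PGK1 read 91.3 and 136 CPM on day 42 against 141 and 231 CPM on day 38, and P4HA1, ERO1A and PGK1 separated the days. Other HIF targets gave no call: VEGFA differed by -0.35 ± 0.19, and DDIT4 by 0.04 ± 0.19.

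The promoters of 4 called genes are shown because they hold ACGTG, the core of the hypoxia response element, which stands in capitals with its reverse complement. They come from the same RefSeq table and are read on the gene's strand. PGK1 is at chrX:78104022-78104074 and GPI at chr19:34364806-34364858, both on the plus strand, and P4HA1 is at chr10:73096924-73096976 and ERO1A at chr14:52695644-52695696, both on the minus strand.
PGK1: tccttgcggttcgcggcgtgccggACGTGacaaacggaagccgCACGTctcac
GPI: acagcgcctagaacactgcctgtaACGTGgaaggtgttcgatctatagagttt
P4HA1: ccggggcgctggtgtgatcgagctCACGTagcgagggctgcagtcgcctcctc
ERO1A: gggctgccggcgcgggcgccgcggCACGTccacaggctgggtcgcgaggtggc
ACGTG was found on either strand in 18.5% of all promoters and in 46.9% of the 49 promoters of tested genes of the list, which cover 30 genes. The list was made of known HIF targets, so this share describes the list and not the day.

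**Figure D2:**
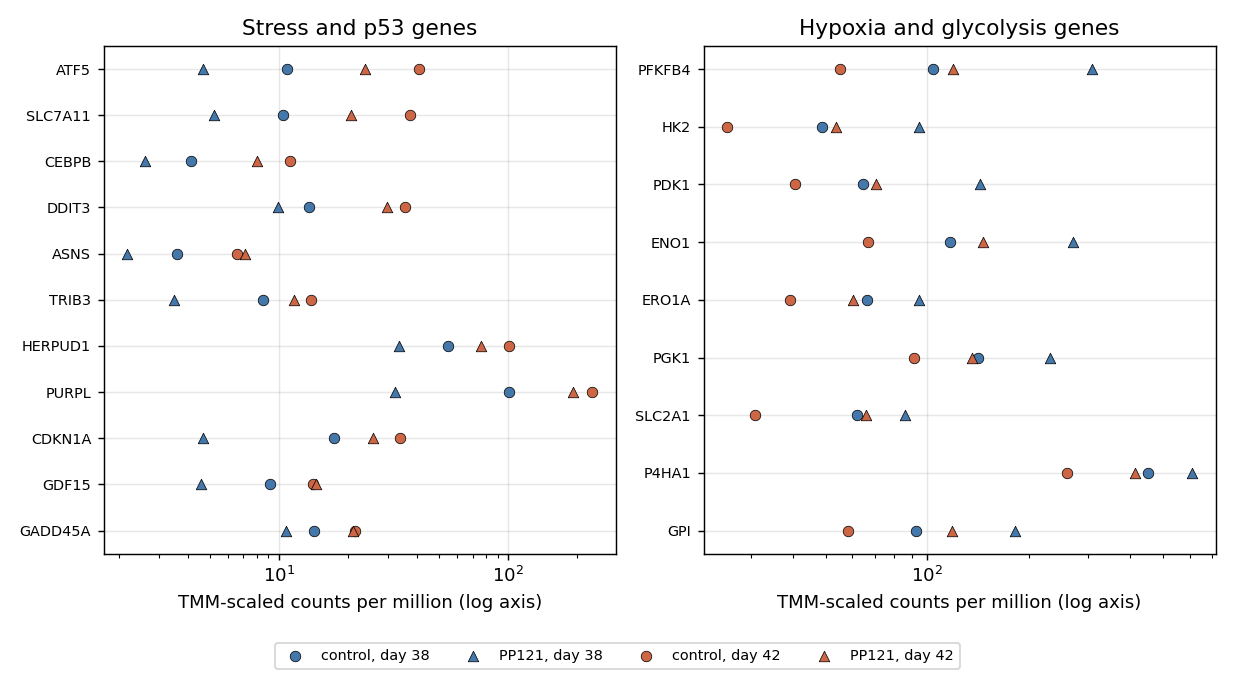
TMM-scaled CPM (log axis) per sample for 11 called stress, ATF4 response and p53 genes (left; JDP2, MTHFD2, MIR34AHG, PLK2 and ZMAT3 are not drawn) and for the 9 called hypoxia and glycolysis genes (right). For the 11 genes on the left the day 42 samples lie above the day 38 samples; on the right the control of day 42 is the lowest sample, and the days overlap for PFKFB4 because the PP121 sample of day 42 (120 CPM) lies above the control of day 38 (104 CPM).

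Of WNT pathway genes 8 of 47 tested were lower on day 42 and 0 higher, where 1.58% of all genes were lower, with a median of -0.40. DESeq2 called 5 of the 8. The receptors among them were ROR2, which binds WNT5A, and LGR5 and LGR4, which bind R-spondins. ROR2 read 6.95 and 27.7 CPM on day 42 against 25.0 and 83.3 CPM on day 38 (log2 fold change -1.70 ± 0.21, edgeR adjusted p = 7.67e-07), and the days overlapped because PP121 samples stood higher. LGR5 read 7.77 and 8.58 CPM against 18.0 and 26.5 CPM (-1.43 ± 0.23), and LGR4 335 and 272 CPM against 596 and 465 CPM (-0.80 ± 0.16). TCF7L1, a nuclear repressor of WNT targets, read 99.2 and 107 CPM against 208 and 273 CPM (-1.21 ± 0.18, edgeR adjusted p = 1.75e-05).

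Secreted members followed. The WNT antagonists SFRP1 and SFRP2 differed by -2.38 ± 0.31 and -1.05 ± 0.22, the ligand WNT7A by -0.69 ± 0.20 and RSPO1 by -1.30 ± 0.34. SFRP1 was at 191 CPM in mesenchymal nuclei against 11 CPM at most in progenitors, and ROR2 at 509 CPM against 83.3 CPM at most. AXIN2, a direct target of WNT signalling, read 13.1 and 13.8 CPM against 14 and 17.1 CPM and was not called (-0.20 ± 0.23).

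In the BMP and TGF-beta list 4 of 33 tested genes were lower on day 42 and 0 higher, beside 1.58% of all genes, with a median of -0.21. DESeq2 called BMP5 and SMAD7. BMP5, a ligand, read 1.5 and 11.2 CPM on day 42 against 7.16 and 40.1 CPM on day 38 (log2 fold change -1.97 ± 0.25, edgeR adjusted p = 1.5e-06). Its mesenchymal level was 244 CPM, and its value ran from -0.155 without the PP121 sample of day 38 (edgeR adjusted p = 0.961) to -3.98 without that of day 42. FST, follistatin, an activin antagonist, differed by -1.48 ± 0.29, and the inhibitory SMADs that BMP signals induce, SMAD7 and SMAD6, by -1.13 ± 0.21 and -0.72 ± 0.21. Other BMP targets gave no call, with ID1 at 0.15 ± 0.20 and ID3 at 0.39 ± 0.21.

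Of Notch genes 3 of 24 tested were lower and 0 higher, beside 1.58% of all genes, with a median of -0.25. DESeq2 called 0 of the 3. The receptor NOTCH3 read 40.7 and 40.4 CPM on day 42 against 66.5 and 65.6 CPM on day 38 (log2 fold change -0.70 ± 0.19, edgeR adjusted p = 0.0282). The ligand JAG1 and the coactivator MAML3 differed by -0.67 ± 0.20 and -0.61 ± 0.16. NOTCH1 and the targets HES1 and HES5 were not called, at -0.27 ± 0.18, 0.27 ± 0.19 and -0.10 ± 0.19.

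In receptor tyrosine kinase systems 1 gene was higher and 5 were lower of 51 tested, beside 1.41% and 1.58% of all genes, with a median of -0.008. The single rise is near the share of all genes. DESeq2 called NRG2, NRG3 and FGFR2. NRG2, a neuregulin ligand of ERBB receptors, read 62.5 and 48.1 CPM on day 42 against 28.3 and 24.3 CPM on day 38 (log2 fold change 1.07 ± 0.20, edgeR adjusted p = 6.91e-04). NRG3, another neuregulin, went the other way at -0.94 ± 0.18. FGFR2, GFRA1 (the GDNF co-receptor), NTF3 (neurotrophin 3) and ECE1 (which processes endothelins) differed by -0.90 ± 0.18, -0.87 ± 0.24, -1.02 ± 0.26 and -0.71 ± 0.20.

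**Figure D3:**
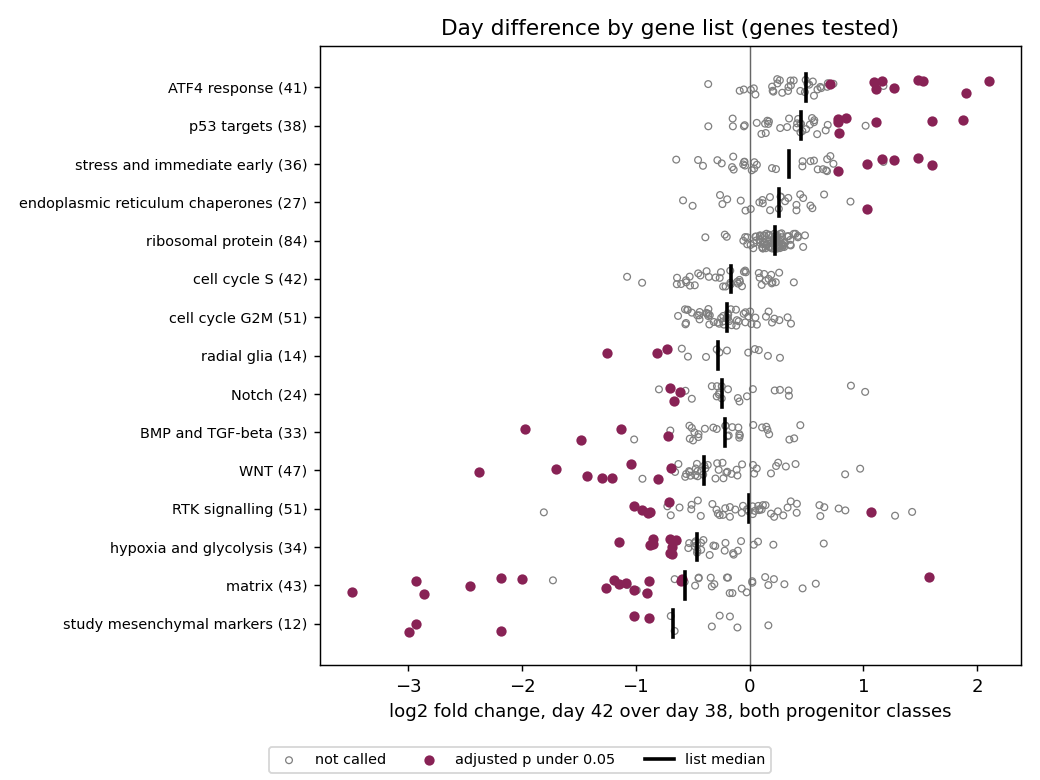
Log2 fold change (day 42 over day 38) in progenitors for each tested gene of 15 lists, with the number tested in brackets. Filled points passed an adjusted p under 0.05 and vertical bars are list medians, which run from 0.49 for the ATF4 response to -0.68 for the study's mesenchymal markers.

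Of the 7 progenitor markers of the study 1 was called, beside 2.99% of all genes. It was PAX7, a dorsal and crest factor, at 92.8 and 113 CPM on day 42 against 152 and 160 CPM on day 38 (log2 fold change -0.61 ± 0.18, edgeR adjusted p = 0.05). SOX2 and PAX3 differed by -0.20 ± 0.19 and -0.23 ± 0.16. Radial glia genes were lower in 3 of 14 and higher in 0, beside 1.58% and 1.41% of all genes. The 3 were PROM1 (prominin 1) at -1.26 ± 0.22, DACH1 at -0.81 ± 0.16 and GLI3, a hedgehog pathway factor, at -0.73 ± 0.17. DACH1 read 642 and 672 CPM against 921 and 1439 CPM.

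Genes of developmental timing gave 3 calls among 19, beside 2.99% of all genes, and DESeq2 called 0 of the 3. IGF2BP3, a fetal RNA-binding protein, read 493 and 463 CPM on day 42 against 708 and 717 CPM on day 38 (log2 fold change -0.58 ± 0.16, edgeR adjusted p = 0.0293), and TRIM71, a ubiquitin ligase of early embryos and a let-7 target, 14.4 and 20.2 CPM against 24.7 and 34.1 CPM (-0.77 ± 0.21). DLK1 was higher on day 42 by 1.08 ± 0.23. LIN28B, the let-7 inhibitor, differed by -0.18 ± 0.18 and was not called.

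Of 39 HOX genes 7 passed the filter on low counts, and HOXD3 alone was called, beside 2.99% of all genes. It read 19.7 and 13.4 CPM against 6.82 and 3.15 CPM (log2 fold change 1.77 ± 0.26, edgeR adjusted p = 2.31e-05). Among central patterning genes 2 of 26 were higher and 5 lower, beside 1.41% and 1.58% of all genes. PAX8 read 41.4 and 9.03 CPM against 9.73 and 3.26 CPM (1.84 ± 0.25), and the days overlapped. PAX2 differed by 1.00 ± 0.23, and DBX2, EYA1, FOXP2, EYA2 and PAX7 were lower. Among enteric crest genes 2 of 17 were called, beside 2.99% of all genes. They were GFRA1 and the homeobox factor MEIS2 (-0.61 ± 0.15), both lower on day 42.

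PAX8 and PAX2 stood at 207 and 420 CPM in enteric neurons, which were more frequent on day 42. Of the 285 genes called higher on day 42, 55 (19.3%) had a pooled neuron level over 2 times that of every progenitor sample, against 5.0% of all genes tested. The 11 neuron markers summed to 1828 and 1573 CPM (scaled to library size) in progenitors of day 42 and to 1368 and 1531 CPM in those of day 38. The part of neuron RNA in these differences was not tested.

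Cell cycle genes gave 0 calls by edgeR in the 2 classes together, among 42 S phase genes and 51 G2M genes tested. The medians were -0.17 and -0.20. Of the G2M genes 40 had a negative and 11 a positive log2 fold change. Both day 42 samples lay below both day 38 samples in 21 of them and above in 4, beside 21.4% and 22.3% of all genes. Of the S phase genes 30 were negative and 12 positive, with 8 below and 3 above. MKI67 read 20.0 and 25.3 CPM on day 42 against 19.1 and 42 CPM on day 38, and TOP2A 58.7 and 60.2 CPM against 67.9 and 112 CPM (-0.56 ± 0.19, edgeR adjusted p = 0.115). The PP121 sample of day 38 was the highest for both. Ribosomal protein genes gave 0 calls among 84 at a median of 0.22. In the smaller lists, glia gave 1 call among 12 (CRYAB, a small heat shock protein, 1.43 ± 0.39). Mitochondrially encoded genes gave 1 among 13 (MT-ND1, 0.86 ± 0.23), beside 2.99% of all genes called. Motile cilia gave 1 among 32 (DNAH11), near that share. Single calls in these lists are not read as results about the lists. The proneural, melanocyte, skeletal muscle, smooth muscle and epithelial lists gave 0 each.

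Of matrix genes 15 of 43 tested were lower on day 42 and 1 higher, beside 1.58% and 1.41% of all genes, with a median of -0.57. DESeq2 called 6 of the 15. After COL3A1, the fibrillar collagen COL1A1 read 2.24 and 1.42 CPM on day 42 against 7.38 and 9.14 CPM on day 38 (log2 fold change -2.19 ± 0.34, edgeR adjusted p = 4.23e-05). LAMA1, a basement membrane laminin, read 57.7 and 47.2 CPM against 102 and 120 CPM (-1.09 ± 0.19), and FBN2, a fibrillin, 103 and 121 CPM against 188 and 234 CPM (-0.91 ± 0.18). TNC (tenascin C) was the gene that was higher on day 42, at 13.8 and 7.10 CPM against 4.14 and 2.72 CPM (1.58 ± 0.30), a call lost with DESeq2 (adjusted p = 0.0869). Of the study's 13 mesenchymal markers 12 were tested and 5 were lower: PRRX1, COL3A1, COL1A1, COL1A2 and COL11A1.

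Mesenchymal nuclei, a mean of 14% of annotated nuclei on day 38 and 0.827% on day 42, held far more of these RNAs. COL1A1 was at 329 CPM and PRRX1 at 395 CPM there, against no more than 9.14 and 4.46 CPM in progenitors. The 13 mesenchymal markers summed to 247 and 274 CPM in progenitors of day 42 and to 305 and 385 CPM in those of day 38, against 4873 to 5514 CPM in mesenchymal nuclei, and no marker was at 0 in every sample. Of the 321 genes called lower on day 42, 53 (16.5%) had a mesenchymal level over 2 times that of every progenitor sample, against 5.68% of all genes tested.

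When a mesenchymal profile was taken off each progenitor sum in the amount that brought COL3A1 to 0, an alternative chosen after seeing the data, 0.282% to 2.85% of UMIs were removed and 706 genes were called. Of the 321 falls 285 were still called, and of the 285 rises 278. The hypoxia and glycolysis list then had 10 falls, WNT 9, BMP and TGF-beta 4, Notch 3 and radial glia 4, each with 0 rises, and the stress list 6 rises with 0 falls. This step set some genes that are rich in mesenchymal nuclei to about 0 on day 38, which by construction gave them high values (DEC1 10.36, TNC 9.71 and COL1A2 9.68), so it is not read for the matrix list or for such genes. The part of mesenchymal RNA in the matrix falls was not tested further.

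**Figure D4:**
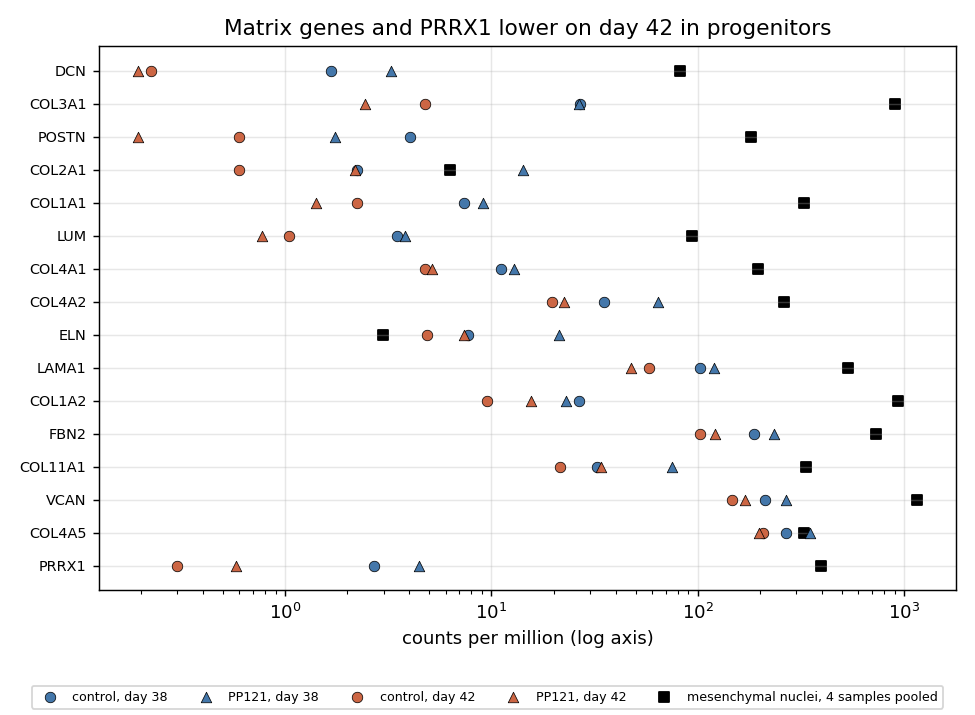
CPM (log axis) of the 15 matrix genes called lower on day 42 and of PRRX1. Circles and triangles are the progenitor sums of each sample (TMM-scaled), and black squares are mesenchymal nuclei pooled over the 4 samples (scaled to library size), where COL3A1 stood at 901 CPM against 26.9 CPM at most in progenitors.

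Each class was then fitted alone. In Progenitor 1, 2350 of 16083 genes were called (14.6%), of which 911 (5.66%) were higher and 1439 (8.95%) lower on day 42. In Progenitor 2, 908 of 18885 were called (4.81%), 427 (2.26%) higher and 481 (2.55%) lower. Without the block 0 genes were called in either (3106 and 1219 at an unadjusted p under 0.05). Leaving out the PP121 sample of day 38 left 0 and 1 calls, the control of day 42 left 42 and 0, the PP121 sample of day 42 left 16 and 1, and the control of day 38 left 999 and 48.

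Of all genes, 8.95% in Progenitor 1 and 2.55% in Progenitor 2 were lower on day 42, and 5.66% and 2.26% were higher. Glycolytic genes were lower in both classes, in 19 of 34 tested in Progenitor 1 and 11 of 33 in Progenitor 2, with 0 higher in either. Stress genes were higher in 13 of 33 and in 9 of 36, with 0 lower. WNT genes were lower in 15 of 37 and 11 of 45, and BMP and TGF-beta genes in 13 of 29 and 5 of 32, with 1 WNT gene higher in Progenitor 2 and 1 and 2 BMP and TGF-beta genes higher in the classes. G2M genes were lower in 7 of 49 and 4 of 51, with 1 and 0 higher, beside 8.95% and 2.55% of all genes lower. TOP2A and ECT2 were among the lower ones in both classes. S phase genes were lower in 2 of 40 and 4 of 42, with 1 and 0 higher. The count of lower S phase genes in Progenitor 1 is below the share of all genes. ATF5 differed by 2.04 in Progenitor 1 and 2.14 in Progenitor 2, DDIT3 by 1.55 and 1.41, and PFKFB4 by -1.25 and -1.14 on the log2 scale.

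Genes with the largest differences in Progenitor 1 were AL356488.3, AC092100.1, AL357507.1, PDE7B and MIR7-3HG upward and AC090376.1, COL3A1, ELN, AC107021.1 and PDE4B downward. PDE7B, a cyclic AMP phosphodiesterase, read 13.6 and 22.9 CPM on day 42 against 3.23 and 3.46 CPM on day 38 in Progenitor 1 (log2 fold change 2.40 ± 0.37, edgeR adjusted p = 1.59e-08). PDE4B, another cyclic AMP phosphodiesterase, read 8.51 and 17.4 CPM on day 42 against 24.2 and 110 CPM on day 38 (-2.22 ± 0.25). AC092100.1 read 46.4 CPM in the PP121 sample of day 42 and 2.69 to 4.13 CPM in the other samples. Of its progenitor UMIs in that sample 91.5% came from 10 nuclei, and its log2 fold change was 0.36 without it. AL356488.3 read 199 CPM there and 5.54 to 12.9 CPM elsewhere, and with G1 nuclei alone its log2 fold change was -0.38.

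In Progenitor 2 the largest were AL356277.3, AL357507.1, THRB, DEC1 and SLC7A11 upward and COL3A1, PDZRN4, SEMA3A, FGFBP3 and CDCA7L downward. THRB read 116 and 52.4 CPM on day 42 against 21.3 and 9.06 CPM on day 38 (log2 fold change 2.48 ± 0.16, edgeR adjusted p = 5.96e-20). FGFBP3, which binds fibroblast growth factors, read 10.8 and 11.2 CPM against 34.5 and 50.2 CPM (-1.93 ± 0.18).

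Whether the classes differed in their response to the day was tested as an interaction in 1 fit. It called 611 of 19080 genes (3.20%), 128 with a larger and 483 with a smaller value in Progenitor 1, and 9 genes when the class by treatment term was left out. LGR4 fell by 1.12 in Progenitor 1 and by 0.49 in Progenitor 2 on the log2 scale (interaction, edgeR adjusted p = 0.00346). COL4A5, a basement membrane collagen, fell by 1.13 and by 0.39 (edgeR adjusted p = 5.08e-04), and SMAD6 fell by 1.48 in Progenitor 1 and differed by -0.36, without a call, in Progenitor 2 (edgeR adjusted p = 0.00948). TNC differed by -0.40 in Progenitor 1, without a call, and rose by 2.17 in Progenitor 2 (edgeR adjusted p = 0.00154). For SLC7A11 the values were 0.93 and 2.20 (edgeR adjusted p = 0.0471).

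By size, the interaction named RAPGEF4-AS1, EYA4, AL157911.1, PDE7B and LRRC29 as higher in Progenitor 1. PDE7B, given above for Progenitor 1, read 8.70 and 14.5 CPM on day 42 against 6.78 and 14.1 CPM on day 38 in Progenitor 2 (interaction 2.21 ± 0.43, edgeR adjusted p = 8.62e-05). EYA4, of the EYA family, read 4.38 and 29.1 CPM against 6.19 and 13.2 CPM in Progenitor 1, and 3.91 and 6.43 CPM against 9.42 and 24.6 CPM in Progenitor 2. Of its progenitor UMIs in the PP121 sample of day 42, 88.4% came from 10 nuclei, and its mesenchymal level was 851 CPM. In the other direction stood AC010319.3, AC016987.1, AC090376.1, AL356277.3 and ELN. ELN (elastin) read 4.62 and 4.18 CPM against 11.6 and 31.5 CPM in Progenitor 1, and 5.00 and 10.5 CPM against 4.90 and 16.5 CPM in Progenitor 2 (interaction -1.92 ± 0.41, edgeR adjusted p = 5.76e-04).

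**Figure D5:**
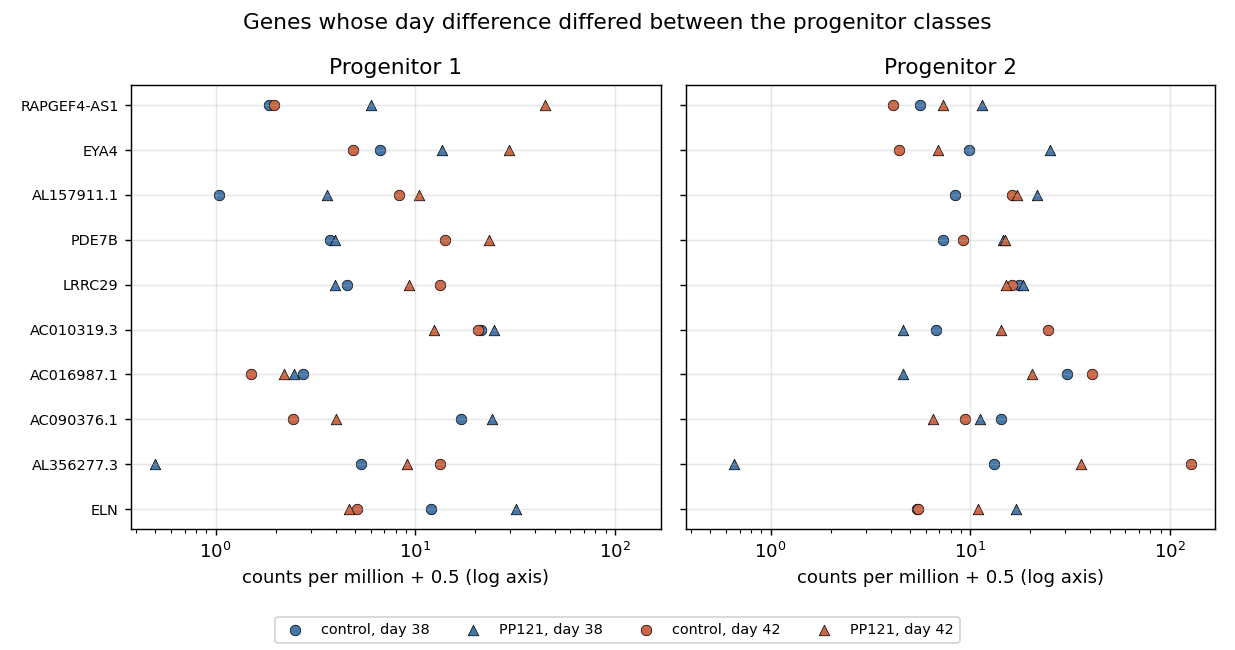
TMM-scaled CPM plus 0.5 (log axis) per sample in Progenitor 1 (left) and Progenitor 2 (right) for the 10 genes with the largest differences in day response between the classes. PDE7B separates the days in Progenitor 1, at 13.6 and 22.9 CPM against 3.23 and 3.46 CPM, and not in Progenitor 2; RAPGEF4-AS1 stands out in the PP121 sample of day 42 of Progenitor 1.

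Against enteric neurons of the same samples the interaction of day and class called 111 of 21787 genes (0.509%), and 0 when the class by treatment term was left out. It called 1 when doublet candidates were left out. THRB was called in progenitors (2.27 ± 0.22) and not by itself in neurons, where it read 12.2 and 10.1 CPM on day 42 against 10.0 and 7.65 CPM on day 38, scaled to library size (interaction 2.01 ± 0.23, edgeR adjusted p = 1.58e-04). EPHA7, an ephrin receptor, read 24 and 50.2 CPM against 47.9 and 208 CPM in progenitors and 82.1 and 94.9 CPM against 69.0 and 88.6 CPM in neurons (interaction -1.66 ± 0.18, edgeR adjusted p = 1.2e-04). No gene of the stress list and none of the hypoxia and glycolysis list was called in this interaction, which does not show that both classes moved alike. ATF5 differed by 1.21 and PFKFB4 by -0.82 in neurons on the log2 scale.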

How the data were processed

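Single-nucleus libraries (10x Chromium 3′ v3.1) were deposited as 1 matrix of UMI counts per sample, with 36601 features by symbol, and a table per nucleus. The submitters' processing notes name Cell Ranger, Seurat 4.0.4 and GRCh38. The study's methods name kallisto/bustools for the count matrices, so which program made these matrices is not clear. Whether intronic reads and strand were used is not stated, so antisense and overlapping genes are uncertain. Deposited percent values of mitochondrial and ribosomal counts were read but enter no test. Classes, days and phases are as deposited by the authors.

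Counts were summed per sample over progenitor nuclei. edgeR 4.0.16 (quasi-likelihood, two-sided, TMM, filterByExpr, Benjamini-Hochberg at 0.05) compared day 42 with day 38, treatment as block; DESeq2 1.42.0 was an alternative. R 4.3.3 was used. The block pairs samples by treatment: deviations from the day means correlated across 20260 genes at r = 0.177. Interactions were 1 fit over 8 sums with sample, class and class by treatment. Only the day fits of the progenitor classes, together and alone, were tested on simulated data. Doublet candidates (highest 5% of Scrublet scores per sample, scanpy 1.11.5) were kept in the main sums. Barcodes without a deposited class were not used.

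Named genes were the 10 largest rises and falls (5 in other fits) with adjusted p under 0.05, at least 10 mean CPM and, except in interactions, separated days; list members were added. The comparison and lists were chosen with earlier results of these data known. Depth per sample and class is given with the results. Alternatives were other normalizations, filters, nuclei, the block left out, and single samples left out.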

Additional observations from a re-analysis of the deposited data

Results flagged for a closer look

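Some day differences were tested as different between the progenitor classes or between progenitors and neurons. An interaction value is the day 42 over day 38 log2 fold change of the first class minus that of the second.

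Between Progenitor 1 and Progenitor 2, the difference was larger in Progenitor 1 by 3.02 for RAPGEF4-AS1, by 2.25 for EYA4, by 2.21 for AL157911.1, by 2.21 for PDE7B and by 1.69 for LRRC29. It was -2.40 for AC010319.3, -2.25 for AC016987.1, -2.17 for AC090376.1, -1.93 for AL356277.3 and -1.92 for ELN. Of the progenitor UMIs of RAPGEF4-AS1 in the PP121 sample of day 42, 87.1% came from 10 nuclei. With G1 nuclei alone, the interaction values of RAPGEF4-AS1 (-0.10) and AC016987.1 (3.46) changed sign.

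Between progenitors and enteric neurons, the values were 2.80 for AP003464.1, 2.01 for THRB, 1.93 for AL357507.1, 1.71 for MATN1 and 1.71 for LINC01982, and -2.30 for ADAMTS18, -1.68 for LINC02144, -1.66 for EPHA7, -1.62 for TRHDE and -1.56 for IQCA1. None of the 10 was called when the class by treatment term was left out, and AP003464.1 was the 1 called when doublet candidates were left out. TRHDE, LINC02144, ADAMTS18 and MATN1 had called day differences in neurons and none in the progenitor classes together. In neurons the log2 fold changes of TRHDE and LINC02144 were 1.84 and 1.99. That of ADAMTS18 in neurons was also positive, and that of MATN1 was negative. ADAMTS18 was called in Progenitor 2 alone as well, with a negative value.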

How the results depend on the processing

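Without the treatment block 0 genes were called in progenitors, in Progenitor 1 and in Progenitor 2. DESeq2's Wald test called 164, 655 and 152, with 71 of the 655 higher on day 42. Equal numbers of nuclei gave 2125 calls in progenitors and 311 in Progenitor 2, at least 10 counts in every sample gave 390 in Progenitor 2, and G1 nuclei alone gave 1142 in Progenitor 1. Leaving out 1 sample gave 2 to 1031 calls in progenitors, 0 to 999 in Progenitor 1 and 0 to 48 in Progenitor 2. Interaction calls between the classes numbered 9 without the class by treatment term, 354 without a filter and 248 in G1 nuclei. Against neurons they numbered 0, 59 with DESeq2's size factors, 1 without doublet candidates and 304 without a filter. The cause was not tested. With mesenchymal nuclei out of the denominator, the share of progenitors differed by -6.04 percentage points in place of 0.852.

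Leaving out 1 sample, the day difference ran from -3.94 to 5.64 points for the share of both classes, from -4.95 to 7.46 for Progenitor 1 and from -3.81 to 3.01 for Progenitor 2. Signs changed for ZMAT3 (-0.029 without the PP121 sample of day 38, up to 1.61 without the control of day 38), COL1A2 (9.68 after mesenchymal subtraction, where its day 38 counts came to about 0 by construction), AL356488.3 in Progenitor 1 (-0.38 in G1), RAPGEF4-AS1 (-0.10) and AC016987.1 (3.46).

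Over alternatives that keep the block, 6 to 20 hypoxia and glycolysis genes, 3 to 14 stress genes, 5 to 15 WNT genes, 2 to 13 BMP and TGF-beta genes and 0 to 5 Notch genes were called, against 0 to 12, 0 to 13, 0 to 12, 0 to 5 and 0 to 3 with 1 sample left out. Over the alternatives that keep the block, the calls among all genes ran from 164 to 2125. The list counts are not read apart from these totals. No paired analysis beyond the treatment block was possible because same-numbered samples of the groups share the treatment alone.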
